A study of Homo sapiens with 9 samples.

Results

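TC/AVE is a line of the Ewing sarcoma cell line TC-71 that was made resistant to AVE1642, an antibody against the type 1 insulin-like growth factor receptor (IGF-1R). It was taken by its label, as 1 of the 6 samples of the series, and was read on 2 of the 9 arrays. The line was grown from TC-71 in rising concentrations of AVE1642, up to 10 µg/ml, over 6 months. It was compared with 3 samples of untreated TC-71, which the labels call not resistant and which had 1 array each. The other selected lines, TC/AEW (grown in the IGF-1R kinase inhibitor NVP-AEW541 up to 5 µM) and TC/CP (grown in figitumumab, another antibody against IGF-1R, with the top concentration not given in the sources used here), had 2 arrays each and enter where stated. All cells were kept in Iscove medium with 10% fetal bovine serum, and TRIzol RNA was read on Affymetrix HG-U133 Plus 2 arrays.

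Several features limit TC/AVE as a model. It is 1 selected line, its arrays are technical replicates, and the sources used here do not say whether it is a clone or whether AVE1642 was in the medium at harvest. No TC-71 culture is named as having been carried beside it during selection. An effect of the antibody, outgrowth of some cells and time in culture therefore cannot be told apart, and neither can fewer cells of a type and less RNA per cell.

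IGF-1R is a receptor tyrosine kinase at the cell surface that binds IGF1 and IGF2. It signals through the IRS adaptor proteins to the PI3K-AKT and RAS-ERK pathways. Ewing sarcoma is driven in most cases by the fusion protein EWS-FLI1, and transformation by this fusion depends on IGF-1R in model cells. Antibodies to the receptor block ligand binding and take the receptor into the cell, where it is degraded, so surface protein and RNA need not move together.

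Values are log2 levels, in which a difference of 1 is 2-fold, and values in TC-71 are listed in the order of samples 1, 2 and 3. Differences are TC/AVE (mean of 2 arrays) minus TC-71 (mean of 3 samples), with a moderated standard error from limma. That error comes from the TC-71 samples and from the spread pooled over genes, so TC/AVE is taken to vary as TC-71 does. A level under 5 is near background, and a difference from it is then a lower bound on its size, for which no fold is given. Where either level is under 6, the fold may also be a lower bound.

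The TC/AVE cells carried the RNA of Ewing sarcoma cells. CD99, the membrane glycoprotein used to diagnose the tumour, read 12.83, 12.82 and 12.83 in TC-71 and 12.99 and 13.00 in TC/AVE. FLI1, whose probe sets may also read the fusion, stood at 9.04 ± 0.40 (SD, n = 3) in TC-71 and 9.23 in TC/AVE, inside the TC-71 range of 8.81 to 9.49. The transcription factor NKX2-2 stood at 9.20 ± 0.24 and 9.06, and the metalloreductase STEAP1 at 12.14 ± 0.14 and 12.40. LIPI, a membrane lipase specific to the tumour, was the exception among the 9 defining markers measured, with 7.09, 6.48 and 7.45 in TC-71 and 5.13 and 5.33 in TC/AVE. None of 7 blood and immune markers lay at least 2-fold apart with separate groups, and their mean level was 5.38 to 5.80 in TC-71 and 5.51 and 5.64 in TC/AVE. Markers of other cell types were mixed within each list. Of 9 epithelial markers 6 were higher and 3 lower, with KRT18, a keratin (-1.03 ± 0.24, and -0.90 from TC-71 sample 2), the member at 2-fold. Among 9 fibroblast markers 6 were higher and 3 lower, and the 2-fold members were DCN, a proteoglycan (1.28 ± 0.58, and 0.65 from TC-71 sample 2), and COL3A1, a collagen (-2.05 ± 0.53), which lay on opposite sides. MITF, a melanocyte factor (1.19 ± 0.31, and 0.93 from TC-71 sample 2), was the 1 of 4 melanocyte and Schwann cell markers that was higher. RUNX2, a bone factor (1.33 ± 0.74), stood out among 7 adipocyte, cartilage and bone markers, of which 4 were higher and 3 lower, but was 0.21 with its probe sets averaged and 0.52 against TC-71 sample 2. The part of these markers in the results was not tested.

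The arrays had closely matched medians, from 5.39 to 5.45. TC/AVE arrays 1 and 2 correlated at 0.998 across genes and differed by 2-fold in 0 of 14181 genes, so they carry no information on culture-to-culture spread. The TC-71 samples stood much further apart. Samples 1 and 2 differed by 2-fold in 1005 genes, samples 1 and 3 in 376 and samples 2 and 3 in 242. TC/AVE differed by 2-fold from sample 1 in 1150 genes, from sample 2 in 578 and from sample 3 in 652. The raw file names place TC-71 sample 2 in the same year as TC/AVE, so the difference from sample 2 alone is given as well. What the year stands for is not given in the sources used here.

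No gene passed an adjusted p of 0.05 between TC/AVE and TC-71 (limma, two-sided, Benjamini-Hochberg over 14181 genes, 0% called). The lowest adjusted p was 0.0853, shared by 4 genes (ECI2, ENPEP, RARRES2 and PDE8B), and 16 genes were under 0.2. At an unadjusted p under 0.05 there were 1018 genes, 469 higher and 549 lower, or 7.18% of all genes. When levels were averaged over a gene's probe sets, 6 genes passed, namely the same 4 with NPTX2 and EMP1 (adjusted p from 0.0313 to 0.0437). After quantile normalization of the 9 arrays, 5 passed, the same 4 with NPTX2 (adjusted p from 0.0310 to 0.0385). With all 9 arrays taken as samples 1857 genes passed, but that fit counts technical replicates as separate samples. All differences below are given as measured values that did not pass the test as fitted here.

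By size, 517 genes were at least 2-fold apart with both TC/AVE arrays outside the range of the 3 TC-71 arrays. Of these, 275 (1.94% of all genes) were higher in TC/AVE and 242 (1.71%) lower. At any size, both TC/AVE arrays lay above all 3 TC-71 arrays in 19.6% of genes and below them in 19.7%. The lower group held the larger differences. At 4-fold or more there were 21 higher and 37 lower genes, and at 8-fold or more 2 higher and 14 lower. TC-71 stood under 5 in 24 of the 275, and TC/AVE in 61 of the 242. Against each TC-71 sample taken alone, 100 genes were at least 2-fold higher and 118 at least 2-fold lower in all 3 comparisons.

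The split of higher and lower genes depended on the TC-71 sample. Against sample 1 alone, 823 genes were at least 2-fold higher and 327 lower, and against sample 3 alone 305 and 347. Against sample 2 alone, 578 genes (4.08%) were at least 2-fold apart, 202 higher and 376 lower, so that higher genes made up 34.9% of them and 53.2% of the 517. Of the 517, 332 were also 2-fold apart from sample 2 in the same direction and 185 were not.

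**Figure D1:**
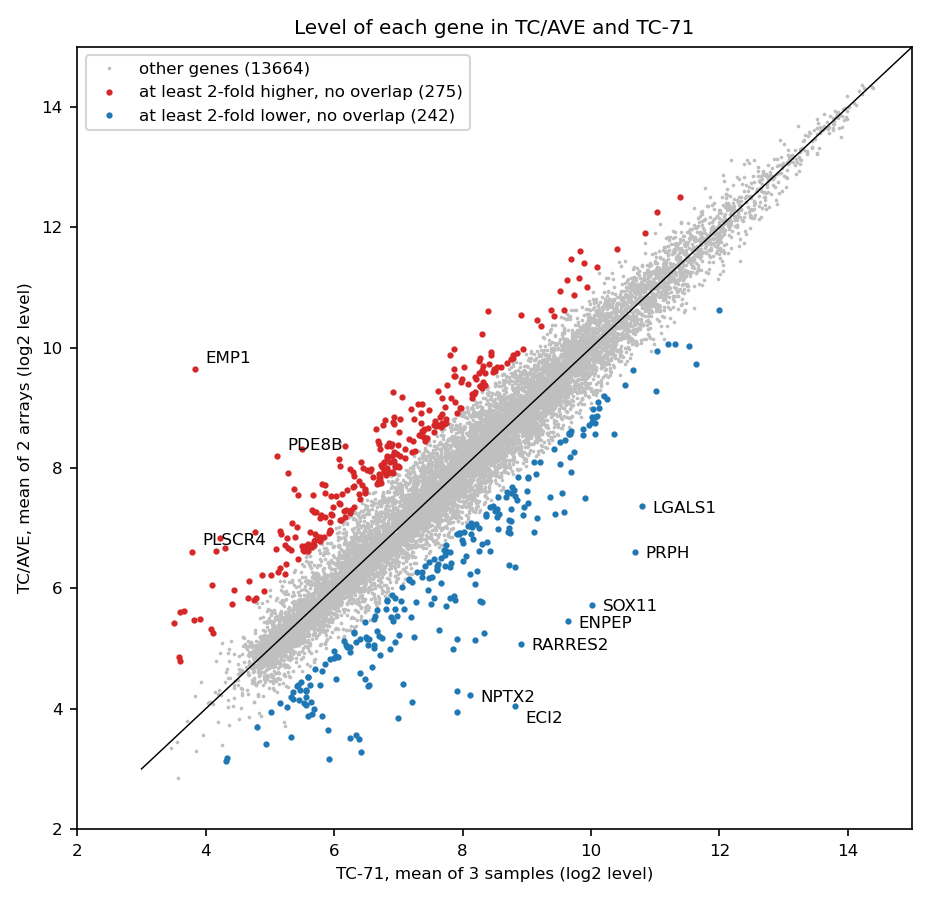
Level of each of 14181 genes in TC-71 (mean of 3 samples, horizontal axis) and TC/AVE (mean of 2 arrays, vertical axis), both in log2 units, with the line of equal levels. The 275 genes at least 2-fold higher with no overlap between the groups are red and the 242 lower ones blue. EMP1 lies furthest above the line, and ECI2, SOX11, ENPEP and PRPH lie furthest below it among the labelled genes.

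Metabolic enzymes, secreted proteins and a neural transcription factor led the genes that were lower. ECI2, an isomerase that prepares unsaturated fatty acids for beta-oxidation in mitochondria and peroxisomes, read 8.65, 9.05 and 8.76 in TC-71 and 4.15 and 3.95 in TC/AVE. Its difference of -4.77 ± 0.25 was a lower bound on the size, since TC/AVE was near background. TC/AEW and TC/CP stood at 8.91 and 8.53, at the level of TC-71.

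ENPEP, the cell-surface aminopeptidase that cleaves angiotensin II, read 9.42, 9.62 and 9.89 in TC-71 and 5.48 and 5.42 in TC/AVE (-4.19 ± 0.26, 18.3-fold lower). RARRES2, the secreted chemoattractant chemerin, read 8.75, 8.81 and 9.15 in TC-71 and 5.43 and 4.73 in TC/AVE (-3.82 ± 0.26, 14.1-fold lower). In each of these genes the gap to TC/AVE was wider than the whole range of the TC-71 samples. NPTX2, a secreted pentraxin of excitatory synapses, read 7.87, 8.42 and 8.07 in TC-71 and 4.25 and 4.19 in TC/AVE, a lower bound of -3.90 ± 0.29.

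SOX11, a transcription factor of developing neurons, read 10.35, 9.38 and 10.33 in TC-71 and 5.56 and 5.91 in TC/AVE (-4.29 ± 0.45, adjusted p = 0.193). It was 19.6-fold lower against the mean. The difference was -3.65 from sample 2, which was the TC-71 sample closest to TC/AVE. TC/AEW stood at 9.06 and TC/CP at nearly the same level. PIWIL2, a germline protein that binds small RNAs, stood at 7.91 ± 0.12 in TC-71 and 5.16 in TC/AVE, and its other probe sets gave -3.39 and 0.12.

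The remaining genes of the 12 ranked lowest differed by -2.18 to -3.06. SLC7A2, a carrier of cationic amino acids, was 8.34-fold lower, and SCML1, a Polycomb-group protein, differed by -2.85 ± 0.32 with TC/AVE at background (5.06 and 4.94). ACAA2, the thiolase of the last step of mitochondrial beta-oxidation, was 5.26-fold lower by the probe set used, with 9.82, 10.05 and 9.83 in TC-71 and 7.50 and 7.51 in TC/AVE. Its other probe sets gave -0.41 and -0.60, the same direction at a smaller size. CA14 (a membrane carbonic anhydrase), PCOLCE (an enhancer of procollagen processing) and CYTL1 (a secreted cytokine-like protein) were 5.02-fold, 4.96-fold and 4.52-fold lower.

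Among the genes that were higher, EMP1 stood apart in size. EMP1, an epithelial membrane protein of the tetraspan type, read 3.06, 4.49 and 3.94 in TC-71 and 9.68 and 9.62 in TC/AVE. TC-71 was near background in all 3 samples, so the difference of 5.82 ± 0.56 was a lower bound. The other probe sets of the gene gave 4.41 and 2.63, and TC/AEW and TC/CP stood at 4.01 and 5.25.

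PDE8B, a phosphodiesterase that breaks down cyclic AMP, read 5.18, 5.08 and 5.07 in TC-71 and 8.21 and 8.18 in TC/AVE (3.09 ± 0.21, 8.50-fold). Its TC-71 samples lay close together, and a further probe set gave 3.29. Also higher were PPP1R14C, an inhibitor of protein phosphatase 1 (4.23-fold), TSHZ1, a zinc finger transcription factor (5.06-fold), and UTS2B, a peptide of the urotensin family (4.85-fold). MGAT5, the Golgi enzyme that builds branched N-glycans on surface receptors, read 6.60, 6.72 and 6.96 in TC-71 and 8.71 and 8.73 in TC/AVE (1.96 ± 0.24, 3.90-fold).

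TC-71 was near background for PLSCR4, a phospholipid scramblase (at least 2.83 ± 0.26), SOX7, a transcription factor of endothelium (at least 2.62 ± 0.25), and LONRF2, a RING-finger protein (at least 2.37 ± 0.27). TMTC2, an enzyme of O-mannosylation, and HOMER2, a synaptic scaffold, were 3.35-fold and 3.33-fold higher. The adjusted p of the 12 ranked highest ran from 0.0853 to 0.204, as did that of the 12 ranked lowest. Of these 24 genes, 12 had 16 further probe sets in all. Among those 16, 15 lay on the same side with both TC/AVE arrays beyond all TC-71 arrays, and 11 were at least 2-fold apart. Averaging the probe sets moved the difference of SOX7 to 1.77, of LONRF2 to 3.06, of SCML1 to -1.94, of ACAA2 to -1.13 and of EMP1 to 4.29.

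**Figure D2:**
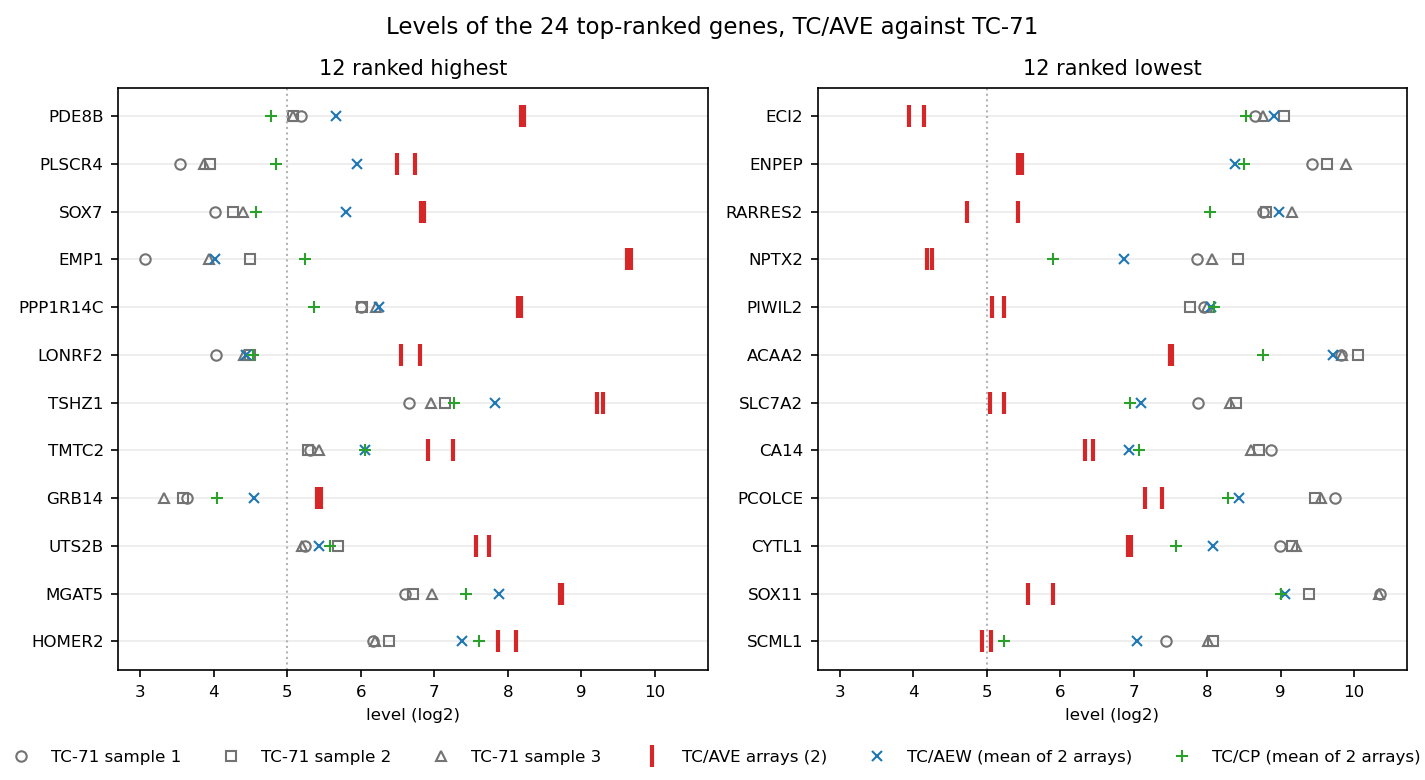
Log2 level (horizontal axis) of the 12 genes ranked highest and the 12 ranked lowest by the moderated statistic among genes at least 2-fold apart with no overlap. Grey symbols are the 3 TC-71 samples, red bars the 2 TC/AVE arrays, and crosses the means of TC/AEW and TC/CP; the dotted line marks a level of 5. In each gene the red bars lie outside the grey symbols, which was a condition of the ranking.

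The receptor that AVE1642 binds was present at a similar RNA level in the resistant line. IGF1R read 9.25, 9.40 and 9.26 in TC-71 and 9.53 and 9.63 in TC/AVE, a difference of 0.28 ± 0.21 (adjusted p = 0.928). By the probe set used, TC/AVE was thus slightly above all TC-71 samples, by less than 2-fold. Other probe sets of IGF1R overlapped TC-71 at -0.0004, -0.07 and 0.22, and a further probe set lay above all TC-71 arrays at 0.53. INSR, the insulin receptor, which forms hybrids with IGF-1R and in its A form binds IGF2, read 5.76, 6.47 and 6.29 in TC-71 and 7.30 and 7.08 in TC/AVE. Its difference of 1.02 ± 0.34 (2.02-fold, adjusted p = 0.619) was 0.72 from sample 2 alone.

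Of 18 measured genes of the IGF system, 0 passed the test, and the median difference was -0.05 against -0.02 for all genes. At least 2-fold higher without overlap were 3 (16.7%, against 1.94% of all genes), and 1 was lower (5.56%, against 1.71%). GRB14, an adaptor that binds the insulin receptor and inhibits it, read 3.63, 3.58 and 3.32 in TC-71 and 5.40 and 5.46 in TC/AVE, a lower bound of 1.92 ± 0.24. IGFBP5, a secreted IGF-binding protein, read 6.47, 6.56 and 7.07 in TC-71 and 7.71 and 7.95 in TC/AVE (1.13 ± 0.31). Both genes were also at least 2-fold above sample 2 alone, but 4 other IGFBP5 probe sets gave -0.04 to 0.54, and the average over the gene's probe sets was 0.42. With probe sets averaged, 1 gene of the list and not 3 was 2-fold higher. STC1, a secreted glycoprotein that inhibits the protease of IGF-binding proteins, read 5.98, 7.63 and 6.38 in TC-71 and 5.40 and 5.19 in TC/AVE, below every TC-71 sample (-1.37 ± 0.66, and -2.33 against sample 2).

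The other IGF genes moved little. IGF2R, the scavenger receptor that clears IGF2, read 9.55, 10.24 and 9.92 in TC-71 and 9.47 and 9.38 in TC/AVE. IRS2, an adaptor for both receptors, stood at 12.02 ± 0.09 in TC-71 and 11.66 in TC/AVE (-0.36 ± 0.21). For IRS1 (0.11 ± 0.50), IGF1 (-0.03 ± 0.25) and IGFBP3 (-0.19 ± 0.29) the groups overlapped, and IGFBP3 was near background in both. The direction of these 3 genes turned when single TC-71 samples were left out or sample 2 alone was used.

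Downstream of the receptor, the PI3K list showed 1 gene at this size among 22. INPP4B, a lipid phosphatase that limits AKT activation, read 5.19, 6.90 and 5.36 in TC-71 and 3.90 and 3.87 in TC/AVE, a lower bound of -1.93 ± 0.72 against the mean and of -3.01 against sample 2. PIK3CB, a catalytic subunit of PI3K, read 6.98, 7.70 and 7.55 in TC-71 and 8.30 and 8.38 in TC/AVE (0.93 ± 0.34). The list's median was -0.02. In the RAS-ERK cascade, 1 of 16 genes was at least 2-fold apart, the RAS-related GTPase RRAS2 (8.47 ± 0.36 against 9.60, 2.18-fold higher). Its difference from sample 2 was 0.72.

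The list of genes that ERK signalling induces or that feed back on it had 14 of 18 genes higher and a median of 0.27. ETV5, an ETS factor induced by ERK, read 7.44, 9.37 and 8.51 in TC-71 and 9.79 and 10.07 in TC/AVE. Against sample 2 its difference was 0.56, as compared with 1.49 ± 0.73 against the mean. EMP1, described above, is in this list, and EPHA2, an ephrin receptor induced by ERK, ran the other way (6.98, 6.97 and 7.22 against 6.09 and 5.95). Among 16 immediate early genes, KLF2 and KLF6, zinc finger factors, were 3.02-fold and 2.15-fold higher, and KLF2 spread from 6.15 to 7.93 within TC-71. The difference of KLF2, 1.59 ± 0.68 against the mean, was 0.67 against sample 2 and 0.93 with probe sets averaged. That of KLF6 was 0.73 against sample 2.

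Other receptor tyrosine kinases showed both directions. EPHA7, an ephrin receptor, stood at 6.04 ± 0.29 in TC-71 and 4.49 in TC/AVE, near background. ROR1, a receptor for WNT5A, read 7.06, 6.80 and 6.72 in TC-71 and 7.86 and 8.01 in TC/AVE (2.10-fold higher), and MERTK, a receptor that recognises dying cells, was 2.08-fold higher. These were 3 of 30 kinases measured, 2 higher (6.67%, against 1.94% of all genes) and 1 lower (3.33%, against 1.71%). The difference of MERTK was 0.59 against sample 2 and 0.84 with probe sets averaged. Among 23 growth factors for such kinases, MDK, the heparin-binding factor midkine, read 8.83, 8.73 and 8.60 in TC-71 and 7.20 and 7.07 in TC/AVE (-1.59 ± 0.22, 3.01-fold lower). MDK stood at 8.40 and 8.37 in TC/AEW and TC/CP.

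The list of cholesterol and fatty acid synthesis had the largest share of members at least 2-fold higher among the 36 pathway lists. Of 25 genes, 20 were higher and 5 lower, and the median was 0.47. At least 2-fold higher without overlap were 5 (20%, against 1.94% of all genes), and 0 were lower (0%, against 1.71%). All 5 were also at least 2-fold above TC-71 sample 2 alone, where the median was 0.35. None passed the test, and the list was chosen with its direction in these samples known, so the count is no independent evidence of it.

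INSIG1, which holds the sterol sensor in the endoplasmic reticulum and is itself a target of SREBP factors, read 9.40, 9.63 and 10.04 in TC-71 and 11.43 and 11.54 in TC/AVE (1.79 ± 0.31, 3.47-fold). HMGCS1, the cytosolic synthase that makes HMG-CoA for the mevalonate pathway, read 9.77, 9.78 and 10.14 in TC-71 and 11.46 and 11.36 in TC/AVE (2.86-fold). DHCR7, which carries out the last step of cholesterol synthesis, read 9.96, 9.80 and 9.69 in TC-71 and 11.19 and 11.12 in TC/AVE (2.53-fold). In each of them the lowest TC/AVE array was more than 2-fold above the mean of TC-71. STARD4, a carrier of cholesterol between membranes, was 2.59-fold higher and MSMO1, a demethylating sterol oxidase, 2.33-fold. TC/AEW and TC/CP lay between TC-71 and TC/AVE for these 5 genes, for instance at 10.96 and 10.62 for INSIG1.

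Genes of this pathway are switched on by SREBP factors bound to sterol regulatory elements. The element in its known form, TCACNCCAC, was searched on both strands in RefSeq promoter sequences (GRCh38.p14, 250 bases before to 50 after the start). It occurred in 1.13% of all 35116 promoters and in 1 of the 23 genes of the list with a promoter sequence, SREBF2, which encodes an SREBP. The shorter core CACNCCAC, contained in the longer form, occurred in 5.87% of all promoters and in 6 of the 23 genes (INSIG1, IDI1, SCD, SC5D, ACACA and SREBF2). The 23 genes had 32 promoters, and a gene was counted if any of its promoters matched. Counts of genes and shares of promoters are therefore unlike measures. The stretch of INSIG1, the member with the largest difference, is shown with the core in capitals, where it lies on the reverse strand at position -208 from the start (chr7:155297644-155297703, plus strand).
INSIG1: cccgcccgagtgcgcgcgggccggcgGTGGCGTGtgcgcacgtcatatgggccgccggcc
A match is a description of letters and not a bound site. Among the 6 genes with the core, SC5D (0.73 ± 0.27), SREBF2 (0.55 ± 0.24) and SCD (0.50 ± 0.21) lay above all TC-71 arrays in TC/AVE, as did the other SCD probe sets at 1.17 to 1.64. By the probe sets used, IDI1 (-0.18 ± 0.22) and ACACA (-0.08 ± 0.23) overlapped TC-71, but other probe sets of IDI1 gave 0.91 and 0.94 and the other ACACA probe set 0.50, each above all TC-71 arrays. Whether the latter genes differed from TC-71 thus rested on the probe set.

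Fatty acid oxidation, the opposing pathway, was split by enzyme. Of 21 genes, 8 were higher and 13 lower, and the median was -0.11. At least 2-fold higher were 2 (9.52%, against 1.94% of all genes), and 3 were at least 2-fold lower (14.3%, against 1.71%). The lower genes were ECI2 and ACAA2, given above, and CPT1C, the neuronal relative of carnitine palmitoyltransferase, which read 6.95, 7.15 and 6.84 in TC-71 and 5.35 and 5.72 in TC/AVE. CPT1A, the form that admits long-chain fatty acids to mitochondria, ran the other way with 8.51, 8.24 and 8.32 in TC-71 and 9.57 and 9.60 in TC/AVE (2.34-fold higher). PPARA, the nuclear receptor that induces oxidation genes, stood at 7.34 ± 0.23 in TC-71 and 8.55 in TC/AVE. All 5 were at least 2-fold from sample 2 as well. Averaging the probe sets moved CPT1A to 0.97 and PPARA to 0.86, both under 2-fold, while the 3 lower genes stayed at least 2-fold lower.

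**Figure D3:**
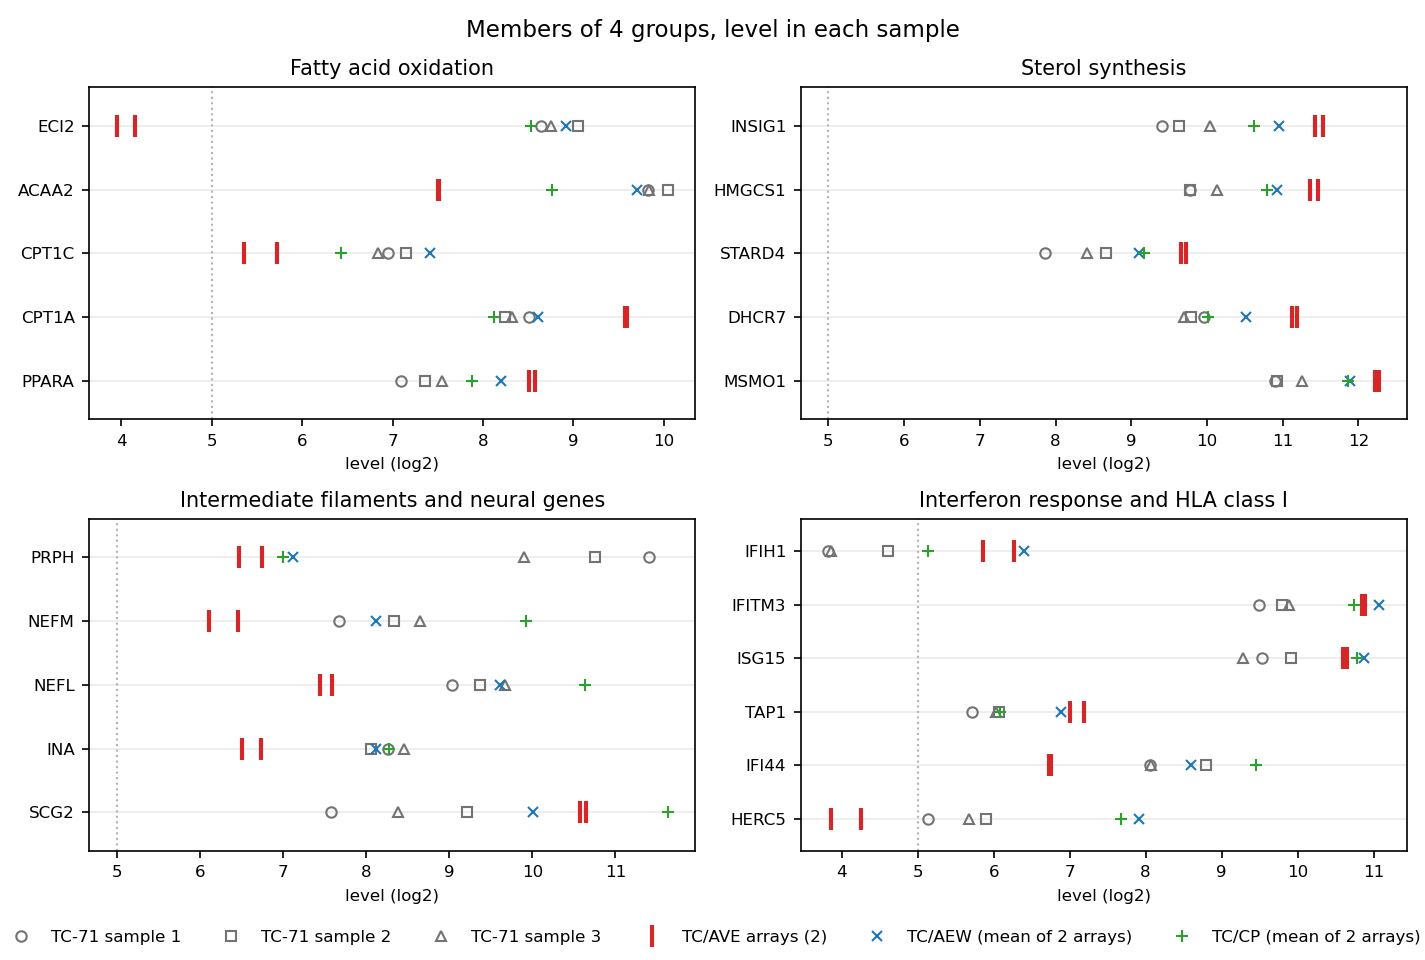
Log2 level (horizontal axis) in each sample of members of 4 gene groups, with TC-71 samples in grey, TC/AVE arrays in red and the means of TC/AEW and TC/CP as crosses. The sterol genes lie to the right of TC-71 in TC/AVE, ECI2 and ACAA2 lie to the left, and HERC5 lies to the left in TC/AVE and to the right in the other lines.

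HLA class I and peptide-loading genes had the highest median of all lists, 0.62, with 14 of 16 genes higher and 11 above all TC-71 arrays, where 19.6% of all genes lay. TAP1, a subunit of the peptide transporter, read 5.72, 6.07 and 6.03 in TC-71 and 7.01 and 7.19 in TC/AVE (2.24-fold), the only member at 2-fold. Its partner TAP2 stood at 5.30 ± 0.19 and 6.11. HLA-B (0.92 ± 0.32) and HLA-C (0.85 ± 0.22), the peptide-presenting chains, were each above every TC-71 array, but probes for these near-identical genes may read one another, so the single values are uncertain. TC/AEW was higher still for both, at 10.24 and 10.22.

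The interferon-response list was mixed. TC/AVE was above TC-71 in 17 of its 24 genes and below in 7, and the median of 0.32 became 0.05 against sample 2 alone. IFIH1, a sensor of double-stranded RNA, read 3.82, 4.61 and 3.86 in TC-71 and 5.86 and 6.26 in TC/AVE. IFITM3, a membrane protein that restricts virus entry, was 2.21-fold higher and ISG15, a ubiquitin-like modifier, 2.07-fold higher. Against sample 2 alone the difference of ISG15 was 0.71.

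HERC5, the ligase that attaches ISG15, ran the other way, with 5.13, 5.90 and 5.67 in TC-71 and 4.25 and 3.86 in TC/AVE. It stood at 7.91 in TC/AEW and 7.68 in TC/CP, so that TC/AVE and the other lines lay on opposite sides of TC-71. IFI44, an interferon-induced protein, was 2.97-fold lower than TC-71 (8.06, 8.80 and 8.07 against 6.75 and 6.72). The genes of this list thus did not share a direction in TC/AVE.

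Genes that handle antibodies and internalised receptors were read because the selecting agent is an antibody. FCGRT, the receptor that returns IgG from endosomes to the surface, read 11.76, 11.17 and 10.99 in TC-71 and 10.03 and 10.09 in TC/AVE (-1.25 ± 0.36, 2.38-fold lower, adjusted p = 0.580). TC/AEW, which saw no antibody, stood at 10.50 and TC/CP at 9.60. CD55, which protects cells from complement, read 5.57, 6.96 and 6.37 in TC-71 and 7.63 and 7.73 in TC/AVE (2.60-fold higher), and 0.72 above sample 2 alone. CAVIN1, a coat protein of caveolae, was the only gene of 28 for endocytosis and ubiquitin ligases at 2-fold (7.11, 6.73 and 7.17 in TC-71 against 7.95 and 8.13). In that list 19 genes were higher, with a median of 0.24. In the list of Fc receptors, antibody recycling and complement regulators, which holds FCGRT and CD55, 10 of 13 genes were higher. Among its members EHD4, a recycling ATPase, was higher (0.80 ± 0.25) and RAB4A, a GTPase of fast recycling, was lower (-0.80 ± 0.26).

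Over the 22 neuronal and neuroendocrine genes the median was -0.02. Of them, 2 were at least 2-fold higher (9.09%, against 1.94% of all genes) and 4 lower (18.2%, against 1.71%). The 4 lower ones encode intermediate filaments. PRPH, the neuronal intermediate filament peripherin, read 11.40, 10.75 and 9.90 in TC-71 and 6.75 and 6.48 in TC/AVE (-4.07 ± 0.59, 16.8-fold lower, adjusted p = 0.262). NEFM, the medium neurofilament chain, read 7.68, 8.34 and 8.65 in TC-71 and 6.11 and 6.46 in TC/AVE, and NEFL, the light chain, 9.03, 9.37 and 9.67 against 7.44 and 7.59. INA, alpha-internexin, stood at 8.26 ± 0.20 and 6.62. All 4 were also at least 2-fold below sample 2 alone.

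PRPH was as low in TC/AEW (7.12) and TC/CP (7.01), whereas NEFM, NEFL and INA were not below the lowest TC-71 sample in either line. SCG2, a precursor of secreted peptides in dense-core granules, was higher, with 7.57, 9.22 and 8.38 in TC-71 and 10.64 and 10.57 in TC/AVE (2.22 ± 0.63, and 1.39 against sample 2). HOMER2, given above, was the other member that was higher at this size.

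Collagens and matrix genes leaned lower. Of 16 collagen genes, 12 were lower and 4 higher, and the median was -0.37, against -0.02 for all genes. At least 2-fold lower were 3 (18.8%, against 1.71% of all genes), and 0 were higher (0%, against 1.94%). COL16A1, a fibril-associated collagen, read 8.88, 7.81 and 8.32 in TC-71 and 5.12 and 5.40 in TC/AVE (-3.08 ± 0.44, 8.43-fold lower). COL3A1, a fibrillar collagen, read 6.67, 7.97 and 7.08 in TC-71 and 5.12 and 5.26 in TC/AVE, with -1.07 when probe sets were averaged and -2.78 against sample 2. COL21A1, another fibril-associated collagen, was 2.00-fold lower. COL5A2, which shapes collagen fibrils, was an exception (10.23 ± 0.49 against 11.15). COL16A1 was as low in the other lines, at 5.42 and 5.35, while COL3A1 was not (8.31 and 7.26).

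Among 31 matrix and mesenchymal genes, 21 were lower. PRRX1, a homeobox factor of mesenchyme, read 7.56, 7.97 and 7.87 in TC-71 and 6.07 and 5.62 in TC/AVE (3.88-fold lower). LOXL1, which crosslinks elastin, was 2.69-fold lower, and the collagenase MMP1 was near background in TC/AVE (3.59 and 3.48 against 4.64, 5.36 and 5.97). DCN, given above, was the member that was higher at this size. In the list of 16 genes known to be repressed by EWS-FLI1, LGALS1, the galactose-binding lectin galectin-1, read 10.58, 11.36 and 10.42 in TC-71 and 7.35 and 7.39 in TC/AVE (-3.42 ± 0.42, 10.7-fold lower). CYP1B1, a steroid hydroxylase, was 3.29-fold lower and TGFBR2, the TGF-beta type II receptor, 2.00-fold higher. The difference of TGFBR2 was 0.48 against sample 2 and 0.69 with probe sets averaged.

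Adhesion receptors showed a different mix. Of 17 cadherins and protocadherins, 3 were at least 2-fold higher (17.6%, against 1.94% of all genes) and 2 lower (11.8%, against 1.71%). CDH3, P-cadherin, read 6.09, 6.09 and 6.28 in TC-71 and 7.28 and 7.29 in TC/AVE (2.19-fold), and CDH8 and CDH10, both neuronal cadherins, were 2.82-fold and 2.34-fold higher. Against sample 2 their differences were 0.57 and 0.54, and CDH8 was 0.74 with probe sets averaged. PCDH8, a neural protocadherin, read 8.81, 9.61 and 9.91 in TC-71 and 7.15 and 7.33 in TC/AVE (4.60-fold lower). CDH11, a mesenchymal cadherin, was 2.06-fold lower, with -0.73 when probe sets were averaged. ITGA2, the collagen-binding integrin chain, was 3.31-fold higher and ITGB5, a vitronectin-binding chain, 2.16-fold. The difference of ITGB5 was 0.77 against sample 2 and 0.83 with probe sets averaged. In axon guidance, NRP1, a co-receptor for semaphorins and VEGF, stood at 7.48 ± 0.22 in TC-71 and 6.17 in TC/AVE.

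In the list of BCL2 family and death receptor genes, 3 were at least 2-fold lower (12%, against 1.71% of all genes) and 1 higher (4%, against 1.94%). TNFRSF10D, a decoy receptor for TRAIL, read 9.11, 8.23 and 9.11 in TC-71 and 6.31 and 6.41 in TC/AVE (-2.46 ± 0.42, and -1.87 against sample 2). FAS, the receptor for FAS ligand, stood at 7.80 ± 0.72 and 6.61, with -1.93 against sample 2. BOK, a BCL2-family protein that promotes death, stood at 8.84 ± 0.71 and 7.46, with -0.82 against sample 2, under 2-fold. BCL2, which blocks mitochondrial death, read 5.99, 6.47 and 6.71 in TC-71 and 7.70 and 7.86 in TC/AVE (1.39 ± 0.33, 2.63-fold higher, adjusted p = 0.519). Its 3 other probe sets overlapped TC-71 at 0.01 to 0.42, and the average over probe sets was 0.48. In this list 16 of 25 genes were lower (median -0.12).

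Among developmental pathways, 2 of 28 genes in the WNT list were at least 2-fold lower without overlap (7.14%, against 1.71% of all genes). At least 2-fold higher were 2 of 26 in the Notch and Hedgehog list (7.69%) and 2 of 32 in the TGF-beta and BMP list (6.25%), against 1.94% of all genes. The medians of the 3 lists were 0.04, 0.08 and 0.03. WNT5A, a non-canonical WNT ligand, read 8.70, 8.50 and 8.97 in TC-71 and 6.94 and 7.09 in TC/AVE (3.27-fold lower). DACT2, an intracellular antagonist of the TGF-beta and WNT pathways, stood at 7.51 ± 0.08 and 5.75. JAG1, a Notch ligand, read 8.09, 9.31 and 9.32 in TC-71 and 10.52 and 10.58 in TC/AVE (1.65 ± 0.56, and 0.97 with probe sets averaged). HES4, a transcription factor of the family that Notch induces, was 2.09-fold higher, and BMP2, a bone morphogenetic ligand, 2.13-fold. CXCR4, a chemokine receptor, was 2.23-fold higher, 1 of 19 cytokine and chemokine genes at this size in that direction.

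Of 33 chromatin regulators, 20 were lower, 16 of them below all TC-71 arrays (19.7% of all genes), with a median of -0.20 both against the mean and against sample 2 alone. DNMT3A, a de novo DNA methyltransferase, read 8.53, 8.43 and 8.64 in TC-71 and 7.22 and 7.16 in TC/AVE (-1.34 ± 0.22, 2.53-fold lower). SMARCA2, an ATPase of SWI/SNF complexes, was 2.06-fold higher, but by 0.59 against sample 2 and 0.85 with probe sets averaged. Replication and mitosis genes stayed close to TC-71, with a median of -0.06 over 34 genes. The replicative helicase subunit MCM5 was the 1 member at 2-fold (2.11-fold lower, and -0.81 against sample 2).

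**Figure D4:**
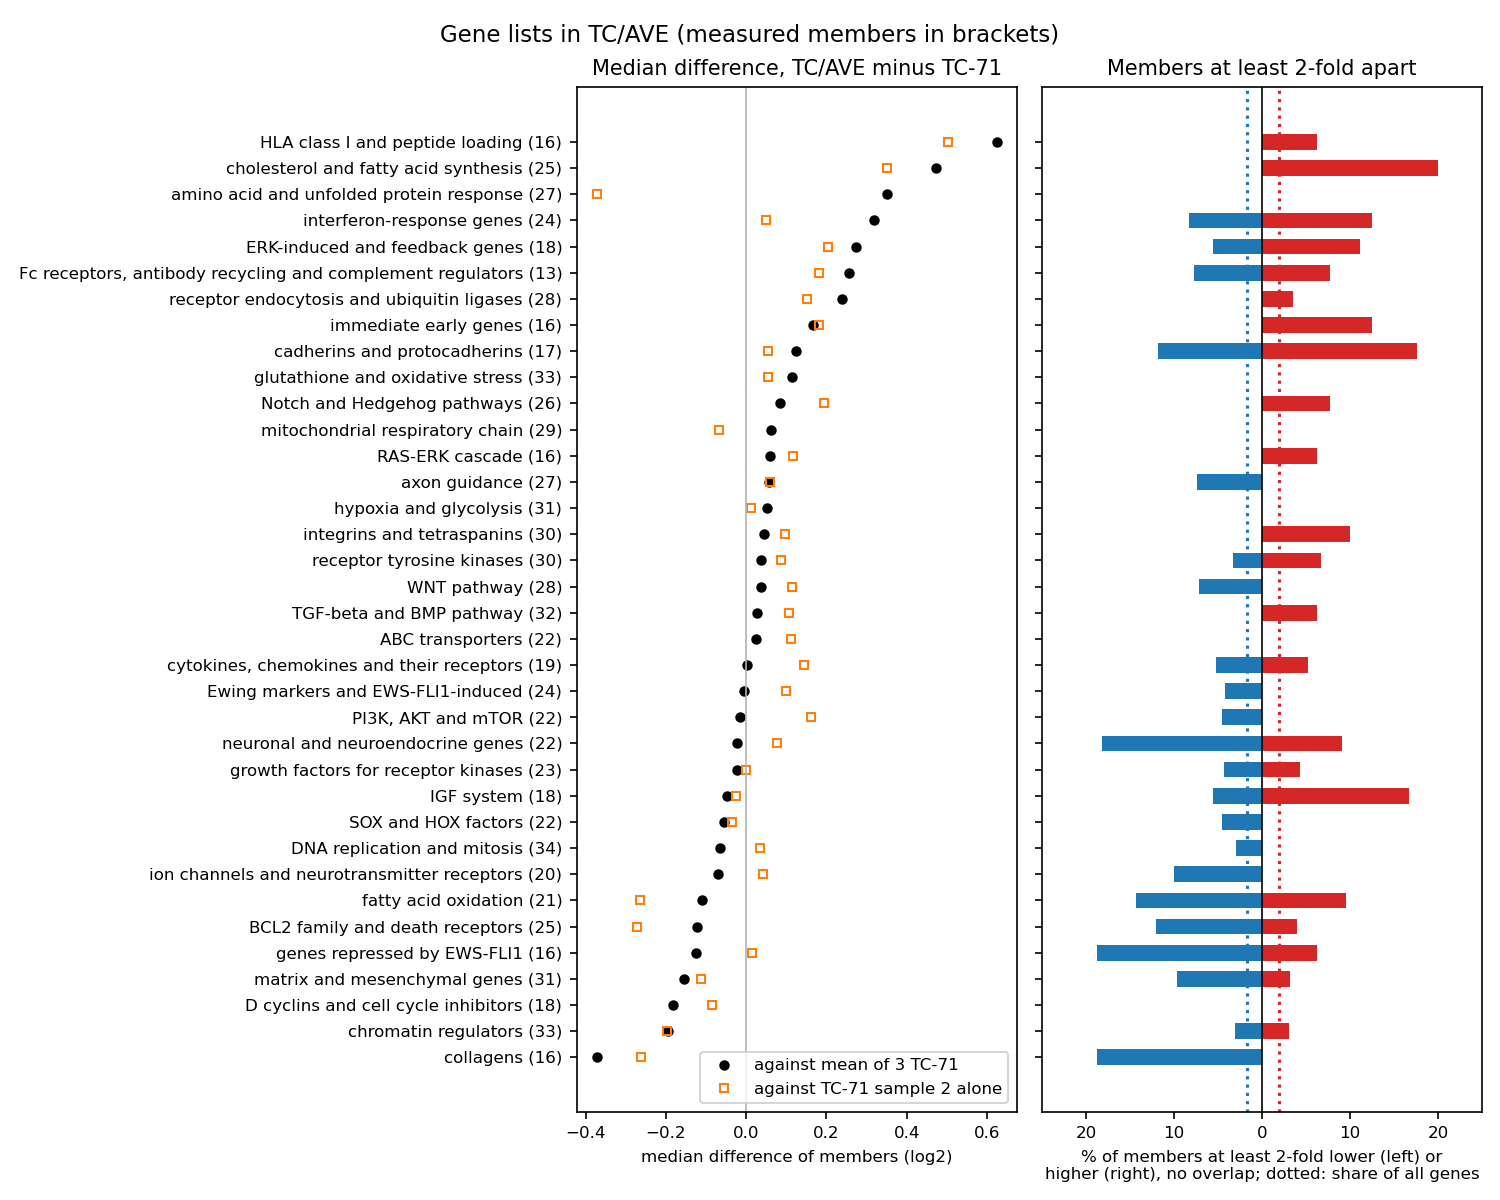
Left, the median log2 difference of each of 36 gene lists against the mean of 3 TC-71 samples (black) and against TC-71 sample 2 alone (orange); right, the percent of members at least 2-fold lower (blue) or higher (red) with no overlap, and the same shares of all genes, 1.71% and 1.94%, as dotted lines. Collagens and the HLA list mark the ends of the black medians, and the amino acid list is the one whose orange and black symbols lie furthest apart.

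The direction of the amino acid and unfolded protein response list turned when TC-71 sample 2 was the only baseline. The list holds targets of ATF4 and of stress in the endoplasmic reticulum. Of 27 genes, 23 were higher in TC/AVE than the TC-71 mean, with a median of 0.35. Against sample 2 alone the median was -0.37. In the 15 settings without that baseline it stayed positive, from 0.21 to 0.55. The mean level of the list was 9.71, 10.8 and 9.64 in TC-71 and 10.5 in both TC/AVE arrays. In 21 of the 27 genes sample 2 was the highest TC-71 sample, and TC/AVE lay above samples 1 and 3 in 25 genes and below sample 2 in 19.

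ASNS, asparagine synthetase, read 10.33, 12.62 and 10.27 in TC-71 and 12.04 and 12.07 in TC/AVE. CHAC1, which degrades glutathione, read 7.83, 10.30 and 6.80 in TC-71 and 9.22 and 9.32 in TC/AVE. In both genes TC/AVE lay inside the TC-71 range. HERPUD1, a protein of the degradation pathway of the endoplasmic reticulum, equalled sample 2 (11.24 against 11.25 and 11.24). No member of the list was at least 2-fold apart with separate groups.

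For 3 further members, picked after their values were seen, both TC/AVE arrays lay above all TC-71 samples. HSPA5, the chaperone BiP, read 12.46, 11.54 and 12.18 in TC-71 and 12.88 and 12.86 in TC/AVE, with sample 2 the lowest. DNAJB9, a co-chaperone of BiP, read 7.54, 7.75 and 7.83 in TC-71 and 8.59 and 8.69 in TC/AVE (0.94 ± 0.23). PDIA4, a protein disulfide isomerase, stood at 10.21 ± 0.03 in TC-71 and 10.73 in TC/AVE. In all, 7 of the 27 genes lay above every TC-71 array and 0 below, against 19.6% and 19.7% of all genes.

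**Figure D5:**
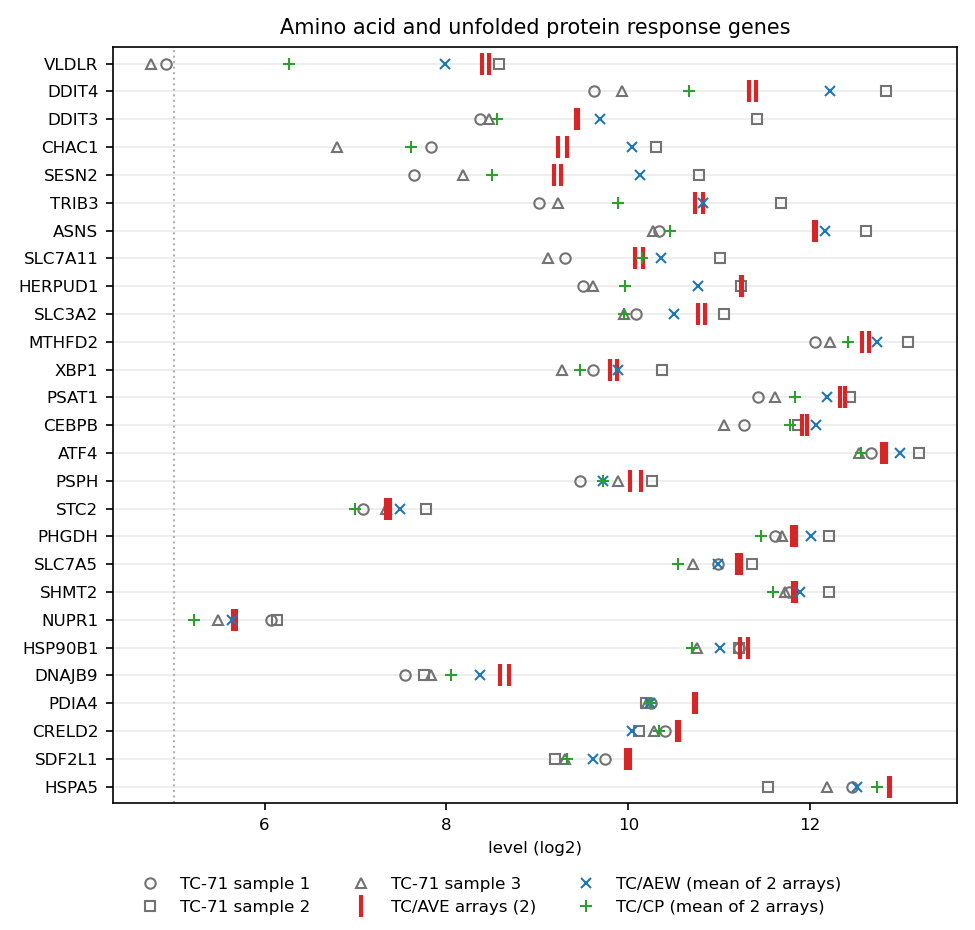
Log2 level (horizontal axis) of the 27 genes of the amino acid and unfolded protein response, ordered by how far TC-71 sample 2 (squares) stood above samples 1 and 3 (circles and triangles). In the upper rows the TC/AVE arrays (red) lie between sample 2 and the other TC-71 samples, as for ASNS and CHAC1.

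TC/AVE was then set against the mean of TC/AEW and TC/CP, to ask which differences belong to this line and not to the selected lines at large. No gene passed (limma, 0% called), the lowest adjusted p was 0.160 for ECI2, and 670 genes (4.72%) had an unadjusted p under 0.05. After quantile normalization ECI2 alone passed (adjusted p = 0.0494). By size, 181 genes were at least 2-fold beyond both TC-71 and the mean of the other lines, with no overlap, 57 higher and 124 lower. The largest such difference among the genes above was that of EMP1 (5.02), followed by ECI2 (-4.67), HERC5 (-3.74), RARRES2 (-3.42), SOX11 (-3.30), ENPEP (-2.99) and PDE8B (2.98). For CA14 (-0.61), HOMER2 (0.49), PRPH (-0.45) and DACT2 (-0.20), TC/AVE lay within 2-fold of the other lines.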

How the data were processed

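The authors deposited log2 expression levels per probe set, which the submitters' processing notes credit to RMA (affy). Versions are not given in the sources used here. Of 54675 probe sets, 62 controls, 1801 with several symbols and 11721 with none were left out. Probe sets had to reach 5 on 2 or more of the 9 arrays (26952 did). Each gene was read by the probe set of highest mean among these, with _x_at probe sets used only where there was no other, which gave 14181 genes. Of 41091 single-symbol probe sets, 41037 matched RefSeq (GRCh38.p14) by gene ID. Technical replicate arrays were averaged, and the 6 samples in 4 groups were fitted with limma 3.58.1 in R 4.3.3 (2 residual and 3.00 prior degrees of freedom, adjusted p threshold 0.05), after a test on simulated data. The p-values cover the spread of these samples alone, and the number of arrays limits precision. With the year of the raw file as a block no residual degrees of freedom remain, and the value within that set is the difference from TC-71 sample 2.

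The 24 ranked genes are the 12 per direction with the largest moderated statistic among genes at least 2-fold apart without overlap. Up to 4 members per list with the largest difference were named, and IGF-system genes, FLI1, CD99 and FCGRT always. PPARA, MSMO1, ISG15, INA, CDH11, NKX2-2, HSPA5, DNAJB9 and PDIA4 were named after their values were seen, and the genes with a motif match for that match. Members, comparisons and the 44 gene lists (864 measured genes) were chosen with earlier results of these data known. Alternatives covered the filter, the probe set rule, the scaling, the variance model, each array or sample left out, and the array as sample.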

Additional observations from a re-analysis of the deposited data

Results flagged for a closer look

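In 14 genes TC/AVE lay at least 2-fold from TC-71 with both arrays outside its range, while every array of TC/AEW and TC/CP lay outside it on the opposite side, and 3 of these are named above. HERC5, the ligase for ISG15, had TC-71 between 5.13 and 5.90, TC/AVE below and the other lines between 7.68 and 7.96, so that TC/AVE differed from their mean by -3.74 ± 0.37 (limma adjusted p = 0.264). CDH10, a neuronal cadherin, had TC-71 between 7.25 and 8.36, TC/AVE above and the other lines between 6.46 and 6.99, a difference of 2.15 ± 0.51 (adjusted p = 0.704). CDH3, P-cadherin, had TC-71 between 6.09 and 6.28, TC/AVE above and the other lines between 5.57 and 6.01, a difference of 1.48 ± 0.23 (adjusted p = 0.445). None of these differences passed the test.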

How the results depend on the processing

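The count of genes called against TC-71 was 6 with probe sets averaged, 5 after quantile normalization, 1857 with all arrays as samples and 1220 with these and the replicate number as a replicate block; against the other lines it was 0, 1, 1432 and 1235. The last settings of each set count technical replicates as samples. The numbers pair nothing in the labels, and deviations of same-numbered arrays correlated at 0.0415. Under the other filters, the variance trend, median centring, no _x_at or _s_at probe sets and each sample left out, 0 genes were called. Of genes at least 2-fold apart without overlap there were 424 to 705 over all settings, with 187 of 470 higher without TC-71 sample 1 and 435 of 705 without sample 2. The cause was not tested.

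Directions turned in few named genes. With probe sets averaged ACACA was 0.21, IDI1 0.39 and IRS1 -0.093. Leaving out samples or arrays gave IRS1 -0.22 to 0.39 and IGF1 -0.14 to 0.054, and with the replicate block IGF1 was 0.00623. Against TC-71 sample 2 alone ACACA was 0.078, ASNS -0.56, CHAC1 -1.03, IGFBP3 0.14, IRS1 -0.0042 and NKX2-2 0.12. Genes near background give bounds only.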

Other observations

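The 24 ranked genes were set beside their nearest measured neighbours on the chromosome, in RefSeq gene order. Of 48 flanking genes, 41 were under 2-fold and 5 were at least 2-fold apart in the same direction without overlap. The range over all 48 was -1.33 to 1.49. Among all genes, 1.94% were at least 2-fold higher and 1.71% lower without overlap. The 5 were chosen after their values were seen. They were PTGR3 beside TSHZ1 (1.49), SLC6A15 beside TMTC2 (1.31), COBLL1 beside GRB14 (1.03), ZBED10P beside RARRES2 (-1.24) and CMPK2 beside SOX11 (-1.24). Against TC-71 sample 2, PTGR3 (0.78), SLC6A15 (0.74) and CMPK2 (-0.84) were under 2-fold, while COBLL1 (1.02) and ZBED10P (-1.30) were not. COBLL1, for example, stood at 5.66 in TC-71 and 6.69 in TC/AVE. The other 2 were at least 2-fold apart in the opposite direction, METTL25 beside TMTC2 (-1.33) and FAM241A beside ENPEP (1.48). Against TC-71 sample 2 they were -1.17 and 0.81. Neighbours of ECI2, EMP1 and PDE8B were all under 2-fold.

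Of 20 genes for ion channels and neurotransmitter receptors, 2 were at least 2-fold lower without overlap (10%, against 1.71% of all genes) and 0 higher. KCNE3, a potassium channel subunit, read 12.42, 11.56 and 12.02 in TC-71 and 10.60 and 10.66 in TC/AVE (2.58-fold lower), with 10.47 and 10.94 in TC/AEW and TC/CP. GRIK2, a kainate receptor subunit, was 2.18-fold lower. Against TC-71 sample 2 alone the differences were -0.93 for KCNE3 and -0.96 for GRIK2, both under 2-fold. In other named genes the groups overlapped in spite of a large difference. INHBE, an activin subunit, read 4.02, 8.23 and 3.44 in TC-71 and 3.73 and 3.70 in TC/AVE, so that the mean of TC-71 was set by sample 2 (-1.52 ± 1.92). LUM, the matrix proteoglycan lumican, read 3.55, 6.51 and 5.61 in TC-71 and 3.59 and 3.96 in TC/AVE, against 8.36 in TC/AEW.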
